A study of Homo sapiens with 42 samples.

Results

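The libraries compared here came from cells of the line titled RS411 (RS4;11), which carried the short hairpin RNA sh2 or the short hairpin RNA sh5, in 3 replicates each. They were taken as the RS411 libraries titled sh2 and sh5, and make up 6 of the 42 samples of a study of NSD2 in 5 human cell lines of acute lymphoblastic leukaemia of the B lineage (B-ALL). RS4;11 carries the fusion of KMT2A with AFF1, and the series describes its hairpin lines as engineered to lower NSD2. The series text names sh2 as the knockdown, whereas sh5 appears in the sample titles alone. Another arm, 3 libraries of the same line with the non-targeting hairpin NT, is set beside both. All 3 arms are RS411 cells grown in RPMI1640 with serum, and the labels do not say whether an arm was 1 clone or a pool, or how long after infection RNA was taken. The same hairpins were also used in the lines SEM and RCH (RCH-ACV), with 3 replicates per arm.

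NSD2, listed in the count table under its older symbol WHSC1, is the enzyme that adds 2 methyl groups to lysine 36 of histone H3, a mark of transcribed and intergenic chromatin. A hairpin RNA is cut by Dicer, and its guide strand is loaded into an Argonaute protein that cleaves the matching transcript. Different hairpins against 1 gene carry different guide strands. B-ALL cells resemble precursor B cells, which express the recombinase and terminal transferase that assemble immunoglobulin genes.

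Assigned reads ran from 27767490 to 67651596 per RS411 library. All 12 B-lineage markers on a marker list were detected, and their summed level was 2888 to 3221 CPM with sh2, 2642 to 3028 CPM with sh5 and 2732 to 3214 CPM with NT (CPM are a gene's reads relative to all assigned reads of a library, with TMM scaling). Of 11 T and NK cell markers 8 were under 1 CPM in every library, as were 9 of 11 myeloid and 9 of 11 erythroid and megakaryocytic markers. TRAC, however, peaked at 343.5 CPM with sh2, 353.3 CPM with sh5 and 351.6 CPM with NT, and NKG7 at 43.4, 40.1 and 41.6 CPM. The T and NK sum was 340.9 to 385.4 CPM with sh2, 357.9 to 393.3 CPM with sh5 and 361.1 to 393.8 CPM with NT. Of the myeloid markers CSF1R was highest, peaking at 10.9 CPM with sh2, 10.7 CPM with sh5 and 7.88 CPM with NT. Of 11 stromal and epithelial markers in the table, 7 were under 1 CPM in every library, but sh5 replicate 1 stood apart. It held COL1A2 at 8.25 CPM, COL3A1 at 7.26 CPM and DCN at 2.63 CPM, matrix genes of fibroblasts that were at no more than 0.116 CPM in each of the other 8 libraries, and its stromal sum reached 22.3 CPM. Counts are therefore also given without sh5 replicate 1, and the part of stromal RNA in them was not tested. Whether replicates came from separate cultures is not stated, so the p-values measure only the spread between these libraries, which may be technical.

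The level of NSD2 did not separate the hairpins. NSD2 stood at 155.3, 157.2 and 253.9 CPM in sh2 replicates 1 to 3, at 167.4, 141.8 and 210.2 CPM in sh5 and at 289.4, 329.0 and 305.1 CPM in NT. The sh2 and sh5 libraries overlapped, each of them lay below every NT library, and replicate 3 was the highest within both arms. The log2 difference of sh2 minus sh5 was 0.11 ± 0.18 (SE, 95% interval -0.35 to 0.57, adjusted p = 0.794, edgeR quasi-likelihood test with the replicate number as a block). That interval does not show that the levels were equal. Without sh2 replicate 3 the difference was -0.06. Against NT the log2 difference of sh2 was -0.75 ± 0.18, at an adjusted p of 0.0585. That of sh5 was -0.86 ± 0.18, at an adjusted p of 0.0721, and neither passed 0.05 over all genes.

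Against this, 1555 of 17165 tested genes (9.06%) differed between the hairpins at an adjusted p under 0.05, and such genes are called below. Of these, 774 (4.51% of those tested) were higher with sh2 and 781 (4.55%) were lower. Most differences were small, with a median size of 0.34 on the log2 scale, and 242 called genes, 71 higher and 171 lower, differed at least 2-fold. All 774 higher genes were higher in each of the 3 same-numbered pairs, and 779 of the 781 lower genes were lower in each pair. The genes were called by a test on these same pairs, so that agreement is not separate support. The count rests on the pairing: without the replicate block 99 genes were called, 29 higher and 70 lower. It fell to 439 genes without sh5 replicate 2, 591 without sh5 replicate 1, 823 without sh2 replicate 2 and 904 without sh2 replicate 1. Set beside NT, 2495 genes (14.5%) were called with sh2, 7.71% higher and 6.83% lower, and 929 (5.41%) with sh5, 3.48% higher and 1.93% lower. These comparisons share their NT libraries.

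**Figure D1:**
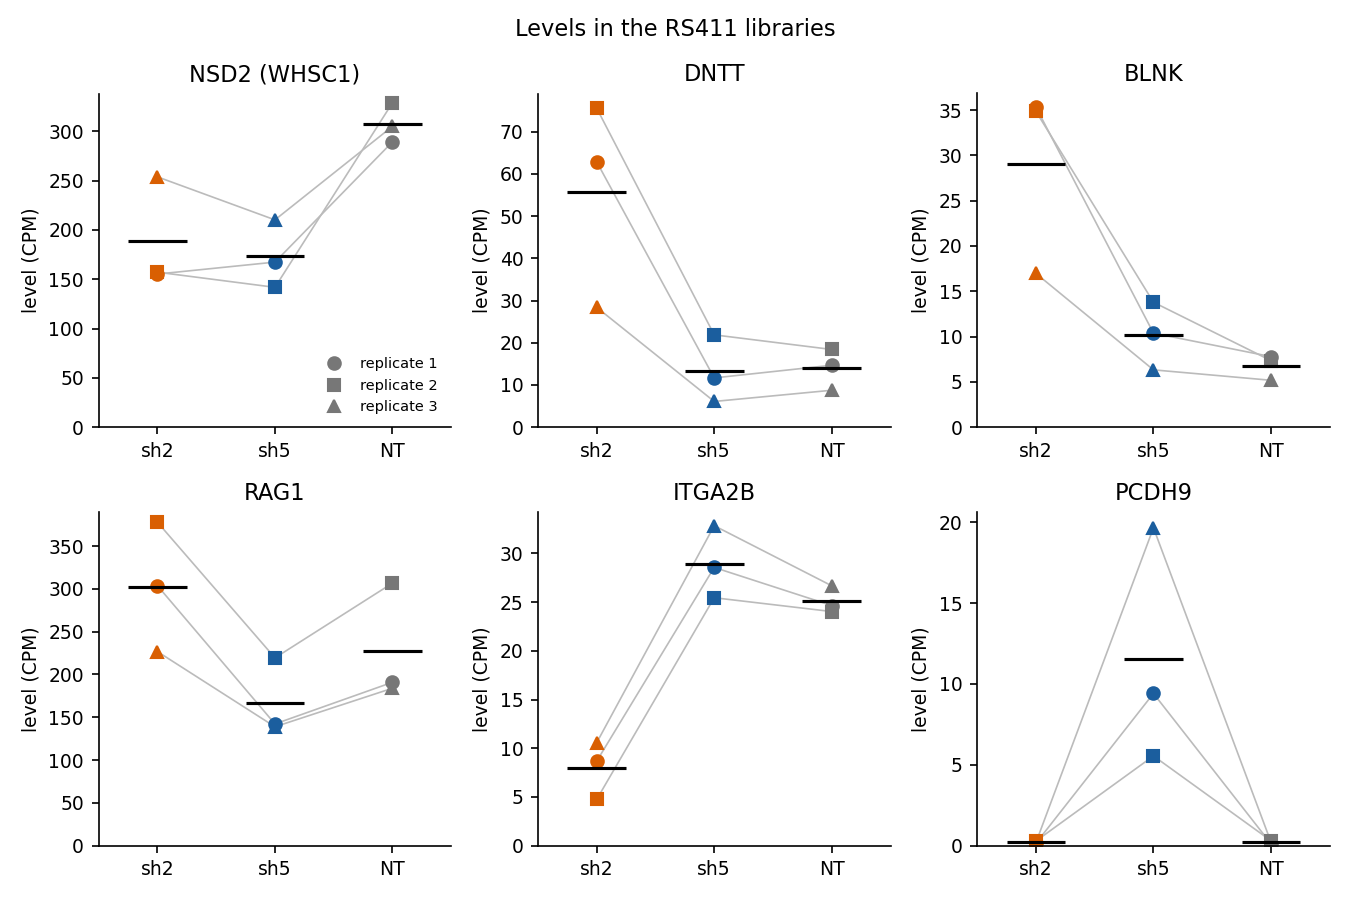
Levels in CPM (vertical axes, from 0) of NSD2 and 5 other genes in the RS411 libraries with sh2, sh5 and NT. Symbols stand for replicates 1 to 3, grey lines join equal replicate numbers and black bars are means. NSD2 overlaps between sh2 and sh5, DNTT, BLNK and RAG1 are highest with sh2, ITGA2B is lowest with sh2, and PCDH9 is above 0.5 CPM in the sh5 libraries alone.

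Of 29 tested B-lymphoid genes 4 rose with sh2 and 2 fell, 20.7% of the list beside 9.06% of all genes. Those that rose were DNTT, BLNK, RAG1 and RAG2. DNTT, the terminal deoxynucleotidyl transferase that adds bases without a template at V(D)J joints, reached 62.9, 75.6 and 28.4 CPM with sh2, against 11.7, 21.9 and 6.09 CPM with sh5 and 14.7, 18.4 and 8.75 CPM with NT. Every sh2 library lay above every library of the other arms, and replicate 3 was the lowest in each arm. DNTT rose by 2.12 ± 0.14 on the log2 scale over sh5 (adjusted p = 0.000148), the largest rise among the genes named by the rule of at least 5 CPM in the higher arm. BLNK, the adaptor that links the pre-B-cell receptor to its downstream kinases, stood at 35.3, 34.9 and 17.0 CPM with sh2, at 10.4, 13.8 and 6.33 CPM with sh5 and at 7.78, 7.35 and 5.18 CPM with NT. It rose by 1.51 ± 0.11 over sh5 (adjusted p = 3.24e-06). BLNK was also higher in sh5 than in NT, by 0.56 (adjusted p = 0.0164), so its order was sh2, sh5, NT.

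RAG1, a subunit of the V(D)J recombinase, stood at 304, 378 and 227 CPM with sh2, against 142, 219 and 139 CPM with sh5 and 191, 307 and 184 CPM with NT. The sh2 and sh5 libraries did not overlap, and NT lay between the means of the hairpin arms. RAG1 rose by 0.87 ± 0.07 over sh5 (adjusted p = 1.53e-05), and set beside NT it was higher with sh2, by 0.43, and lower with sh5, by 0.44 (log2 -0.44). RAG2, its partner subunit, rose less, by 0.27 ± 0.06 (adjusted p = 0.00984), with 66.7 to 77.8 CPM in sh2, 58.8 to 61.5 CPM in sh5 and 54.8 to 57.8 CPM in NT.

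The 2 members that fell were IKZF3 and MME. IKZF3 (Aiolos), a zinc finger factor of later B-cell stages, was at 1.17, 1.14 and 2.03 CPM with sh2, against 3.67, 4.04 and 4.5 CPM with sh5 and 2.80, 1.72 and 3.86 CPM with NT, a fall of 1.54 ± 0.21 (log2 -1.54, adjusted p = 0.000361). MME, which encodes the surface peptidase CD10, was at 1.65, 2.12 and 1.99 CPM with sh2, against 6.96, 5.63 and 11.8 CPM with sh5 and 2.52, 3.27 and 2.08 CPM with NT. MME was thus high in sh5 alone. Its log2 difference was -2.07 ± 0.27 between sh2 and sh5 (adjusted p = 0.00214) and 1.58 between sh5 and NT (adjusted p = 0.0118). The lineage factors PAX5, EBF1, IKZF1 and TCF3 differed by 0.16, 0.12, 0.05 and 0.03 on the log2 scale and none was called. VPREB1, CD79A and CD79B, chains of the pre-B-cell receptor complex, differed by -0.06, -0.06 and -0.11, without a call. The median over the list was 0.083, beside 0.0046 over all genes tested. Without the replicate block no member was called higher by edgeR and 1 lower, with 4 higher and 2 lower at an unadjusted p under 0.05, and DESeq2 without the block called 3 higher and 2 lower.

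The other genes with the largest rises with sh2 served varied roles. FUT7, the fucosyltransferase that completes selectin ligands on leukocytes, stood at 17.2, 16.1 and 11.0 CPM with sh2, against 4.98, 3.91 and 5.83 CPM with sh5 and 7.14, 6.43 and 7.33 CPM with NT, a rise of 1.58 ± 0.18 (adjusted p = 0.000734). MMP14, a membrane-bound matrix metalloproteinase, stood at 33.7, 36.9 and 20.2 CPM with sh2, against 14.4, 18.2 and 11.0 CPM with sh5 and 12.6, 16.1 and 9.59 CPM with NT, a rise of 1.04 ± 0.08 (adjusted p = 2.57e-06). For both genes every sh2 library lay above every library of the other arms. DRAXIN, a secreted axon guidance protein, rose by 1.00 ± 0.11, FRMD4A, a scaffold of cell polarity, by 1.18 ± 0.15, and NINL, a centrosomal protein, by 1.21 ± 0.18.

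CTSW, a cysteine protease of cytotoxic lymphocytes, rose by 1.12 ± 0.17 and CHD5, a chromatin remodeller of the NuRD type, by 1.06 ± 0.17. ZBTB46, a zinc finger factor of dendritic cells, rose by 1.04 ± 0.18, with 7.99, 5.54 and 4.44 CPM in sh2, 2.82, 3.58 and 2.27 CPM in sh5 and 0.970, 0.887 and 0.838 CPM in NT. Both hairpin arms were above NT for ZBTB46, by 2.73 with sh2 and 1.69 with sh5 on the log2 scale (adjusted p = 1.46e-06 and 0.000286). TNFRSF25, a death domain receptor, rose by 1.22 ± 0.22 although its arms overlapped, with 6.77, 7.12 and 2.62 CPM in sh2 against 2.23, 2.96 and 1.64 CPM in sh5 and 0.970, 1.16 and 1.06 CPM in NT. USP41 rose by 1.20 ± 0.15, but it has a near-identical copy in USP18 and its reads are uncertain.

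Among the genes lower with sh2, some fell below NT in sh2 and others were raised in sh5. ITGA2B, the integrin chain of platelets, stood at 8.67, 4.75 and 10.6 CPM with sh2, against 28.6, 25.5 and 32.8 CPM with sh5 and 24.6, 24.0 and 26.7 CPM with NT. The sh2 libraries lay apart from both other arms, and the log2 difference to sh5 was -1.86 ± 0.17 (adjusted p = 0.000925). It is an erythroid and megakaryocytic marker here, and the sum of that list includes it. That sum was 10.7 to 16.4 CPM with sh2, 31.9 to 38 CPM with sh5 and 30.7 to 34.0 CPM with NT. GP9, the only other member tested, peaked at 5.85 CPM with sh2, 6.44 CPM with sh5 and 7.82 CPM with NT. GP9 differed by -0.08 on the log2 scale between sh2 and sh5, without a call. Both genes were called lower with sh2 than with NT. The other 9 of the 11 members were under 1 CPM in every library, 3 of them at 0.

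SPRY1, a feedback inhibitor of receptor tyrosine kinase signalling, stood at 2.83, 0.949 and 4.82 CPM with sh2, against 13.1, 7.43 and 13.6 CPM with sh5 and 12.1, 6.54 and 9.69 CPM with NT, a log2 difference of -2.05 ± 0.28 (adjusted p = 0.00795). DUSP16, a phosphatase that inactivates JNK, stood at 3.47, 1.96 and 6.74 CPM with sh2, against 13.0, 9.53 and 16.4 CPM with sh5 and 12.3, 9.78 and 14.2 CPM with NT (-1.74 ± 0.19, adjusted p = 0.000604). In both genes sh5 resembled NT in level and sh2 was lower. GLCCI1, a glucocorticoid-induced transcript, followed the same pattern, with 3.07, 2.72 and 6.78 CPM in sh2, 12.3, 10.5 and 12.6 CPM in sh5 and 12, 9.87 and 11 CPM in NT (-1.55 ± 0.26, adjusted p = 0.0146). EYA1, a phosphatase that acts as a transcriptional coactivator, differed by -1.80 ± 0.16 (adjusted p = 7.00e-06), PIP5K1B, a phosphoinositide kinase, by -1.49 ± 0.16, and KLHL5, a kelch-like protein, by -1.73 ± 0.33. Calls of KLHL5, GLCCI1 and SPRY1 held in 11, 14 and 15 of 20 alternative analyses.

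SNX9, a sorting nexin of endocytosis, stood at 1.54, 1.77 and 2.81 CPM with sh2, against 7.70, 5.87 and 9.28 CPM with sh5 and 2.93, 2.61 and 3.68 CPM with NT, and differed by -1.93 ± 0.16 (adjusted p = 3.24e-06). Set beside NT, SNX9 was higher with sh5, by 1.30, and lower with sh2, by 0.63 (log2 -0.63). NLGN4X, a neuroligin, stood at 16.7, 6.42 and 24.8 CPM with sh2, against 63.6, 25.5 and 69.6 CPM with sh5 and 22.8, 7.04 and 34.7 CPM with NT (-1.80 ± 0.14, adjusted p = 0.00046). HOPX, an atypical homeodomain protein, stood at 4.05, 1.11 and 3.83 CPM with sh2, against 12.8, 6.95 and 8.67 CPM with sh5 and 2.66, 1.11 and 2.70 CPM with NT (-1.74 ± 0.21, adjusted p = 0.000577). NLGN4X and HOPX were raised in sh5 over NT, by 1.41 and 2.20. S1PR1, the receptor that guides lymphocytes out of tissue, was at 0.748, 0.823 and 0.875 CPM with sh2, against 4.81, 5.39 and 2.16 CPM with sh5 and 0.693, 1.03 and 0.547 CPM with NT (-2.25 ± 0.26, adjusted p = 7.67e-05).

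A few genes were nearly silent in sh2 and NT and present in every sh5 library. PCDH9, a protocadherin of neural adhesion, was at 0.150, 0.285 and 0.189 CPM with sh2, against 9.41, 5.55 and 19.7 CPM with sh5 and 0.116, 0.305 and 0.219 CPM with NT. Its log2 difference was -5.78 ± 0.40 (adjusted p = 0.000118), the largest fall among the genes named by the rule. Looking after the values were seen for genes at no more than 0.5 CPM in all libraries of 2 arms and at least 1.0 CPM in every library of the third found 4 such genes with sh5, and 0 with sh2 and 0 with NT. Besides PCDH9 these were PENK, the precursor of enkephalins, PCDH10, another protocadherin, and SPAG6, a protein of the sperm flagellum. PENK stood at 0.0150, 0 and 0.0473 CPM with sh2, against 3.49, 2.34 and 6.63 CPM with sh5 and 0.0693, 0.0277 and 0.0364 CPM with NT. PCDH10 stood at 0, 0 and 0 CPM with sh2, against 2.95, 1.02 and 6.44 CPM with sh5 and 0, 0.0277 and 0 CPM with NT. In SEM, PCDH10 was also lower with sh2 than with sh5 (log2 -3.44, adjusted p = 0.00258). In all 4 genes replicate 3 was the highest and replicate 2 the lowest of the sh5 libraries. The stromal genes COL1A2, COL3A1 and DCN, by contrast, were high in sh5 replicate 1 and near 0 in sh5 replicates 2 and 3.

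Cells make cholesterol from acetyl-CoA through the mevalonate pathway, and the genes of its enzymes are switched on together by SREBP2 when sterols in the endoplasmic reticulum are low. Of 24 tested genes of cholesterol synthesis and uptake 15 fell with sh2 relative to sh5 and 0 rose, beside 4.55% and 4.51% of all genes. All 24 log2 differences were below 0, from -0.89 to -0.04, with a median of -0.42, beside 0.0046 over all genes tested. Summed over the list the level was 2632, 2190 and 3867 CPM with sh2, against 4273, 3243 and 4640 CPM with sh5 and 4085, 3570 and 4531 CPM with NT.

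The upstream sequences of 3 members are shown because the members moved together and SREBP factors and NF-Y are known to act at such promoters. They are the 250 bases before the gene start in RefSeq (GRCh38.p14), plus strand, 5′ to 3′, with the letters TCACNCNAC and CCAAT in capitals on either strand (ATTGG is CCAAT read on the other strand).
FDPS, chr1:155308616-155308865: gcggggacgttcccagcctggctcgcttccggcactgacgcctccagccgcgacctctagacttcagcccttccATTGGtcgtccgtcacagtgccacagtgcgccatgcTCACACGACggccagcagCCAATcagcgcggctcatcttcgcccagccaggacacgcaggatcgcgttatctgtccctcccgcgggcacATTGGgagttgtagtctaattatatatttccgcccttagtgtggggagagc
HSD17B7, chr1:162790452-162790701: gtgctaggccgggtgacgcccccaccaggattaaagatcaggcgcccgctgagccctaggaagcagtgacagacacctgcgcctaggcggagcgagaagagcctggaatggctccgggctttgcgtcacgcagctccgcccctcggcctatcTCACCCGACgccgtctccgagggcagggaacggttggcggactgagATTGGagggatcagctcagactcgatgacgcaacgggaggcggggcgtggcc
MSMO1, chr4:165327419-165327668: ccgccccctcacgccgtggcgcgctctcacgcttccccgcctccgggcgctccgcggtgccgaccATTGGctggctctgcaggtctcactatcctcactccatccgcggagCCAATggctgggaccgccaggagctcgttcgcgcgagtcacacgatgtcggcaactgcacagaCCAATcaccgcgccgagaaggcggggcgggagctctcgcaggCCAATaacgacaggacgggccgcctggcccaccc
TCACNCNAC, a form of the sterol regulatory element, begins 140 bases before the start of FDPS and 98 before that of HSD17B7 (positions -140 and -98). It was found in 3 of the 18 list members with an entry, and in 553 of 27305 promoters of the same length (2.03%). CCAAT, the NF-Y motif, was found in 15 of the 18 members and in 33% of all promoters. MSMO1 holds it 4 times and the longer motif not at all. These matches describe letters and not binding.

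MSMO1, a sterol C4 demethylase, showed the lowest p of the list. It stood at 133, 106 and 207 CPM with sh2, against 248, 183 and 296 CPM with sh5 and 231, 190 and 267 CPM with NT, and fell by 0.73 ± 0.08 on the log2 scale (log2 -0.73, adjusted p = 0.000577). The arms overlapped, since sh2 replicate 3 lay above sh5 replicate 2, while within each replicate number sh2 was lower. FDPS, which makes farnesyl diphosphate, stood at 196, 161 and 280 CPM with sh2, against 286, 235 and 325 CPM with sh5 and 272, 254 and 328 CPM with NT (-0.43 ± 0.07, adjusted p = 0.00296). HSD17B7, a sterol ketoreductase, stood at 18.8, 15.9 and 24.2 CPM with sh2, against 25.1, 23.5 and 30.5 CPM with sh5 and 25.4, 25.9 and 29.3 CPM with NT (-0.43 ± 0.08, adjusted p = 0.00296). STARD4, a cytosolic sterol carrier, fell by 0.57 ± 0.09 (log2 -0.57), INSIG1, the retention protein of the SREBP escort, by 0.62 ± 0.13 (log2 -0.62), and SQLE, squalene epoxidase, by 0.66 ± 0.14 (log2 -0.66).

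SC5D, a sterol desaturase, differed by -0.39 ± 0.06, IDI1, the isopentenyl diphosphate isomerase, by -0.34 ± 0.06, and ACAT2, an acetoacetyl-CoA thiolase, by -0.40 ± 0.07. Set beside NT, which shares libraries with this comparison, 20 of 24 genes were lower with sh2 (6.83% of all genes were), with a median of -0.46. That count was 10 without sh2 replicate 1, 12 without sh2 replicate 2 and 11 without NT replicate 1 or NT replicate 2. Without the block edgeR called 0, with 11 at an unadjusted p under 0.05, and DESeq2 called 4. With sh5 edgeR called 0 lower (1.93% of all genes were), with a median of -0.02, and 1 gene at an unadjusted p under 0.05, and DESeq2 called 0. The replicates were uneven. Relative to the NT mean the list median was -0.56, -0.84 and -0.09 in sh2 replicates 1 to 3, against 0.06, -0.32 and 0.18 in sh5 and -0.01, -0.17 and 0.19 in NT. Replicate 3, with the smallest fall, also had the highest NSD2 of the sh2 arm. In sh5 too, replicate 3 had the highest NSD2 and the highest list median (0.18). In NT, by contrast, replicate 2 had the highest NSD2 (329.0 CPM) and the lowest list median (-0.17). A link between NSD2 and the list was not tested. Replicate 2 had the lowest list median in every arm, NT included. Called genes of the list numbered 8 without sh2 replicate 1, 8 without sh5 replicate 1 and 9 without sh5 replicate 2. Without the replicate block edgeR called 0, with 10 at an unadjusted p under 0.05, and DESeq2 called 2.

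**Figure D2:**
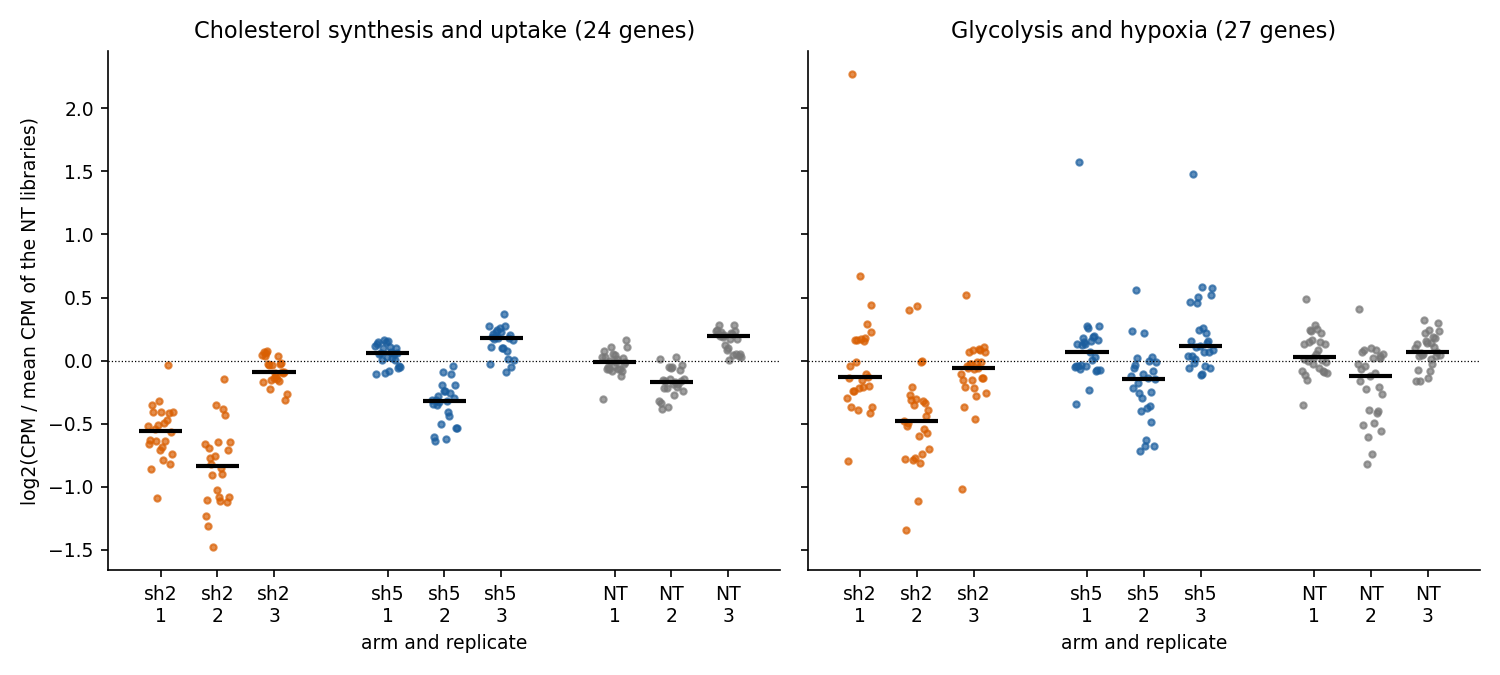
Log2 ratio of each gene's CPM to its mean over the NT libraries (vertical axis), for 24 genes of cholesterol synthesis and uptake and 27 of glycolysis and hypoxia, in each RS411 library. Points are genes and black bars list medians, which for cholesterol are -0.56, -0.84 and -0.09 in sh2, 0.06, -0.32 and 0.18 in sh5, and -0.01, -0.17 and 0.19 in NT.

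Of 17 tested genes of fatty acid synthesis and desaturation 8 fell with sh2 and 0 rose, beside 4.55% and 4.51% of all genes, with a median of -0.26. ACSL4, an acyl-CoA ligase that favours arachidonate, stood at 131, 118 and 153 CPM with sh2, against 177, 149 and 182 CPM with sh5 and 144, 125 and 160 CPM with NT. For ACSL4 sh5 was the arm that stood off NT, by 0.25 (adjusted p = 0.00877), and sh2 differed from sh5 by -0.34 ± 0.05 (adjusted p = 0.000573). HSD17B12, of very long chain elongation, differed by -0.31 ± 0.05, ACACA, the acetyl-CoA carboxylase, by -0.27 ± 0.06, FADS1 and FADS2, the desaturases of polyunsaturated acids, by -0.27 ± 0.06 and -0.33 ± 0.09, and ACLY, which supplies cytosolic acetyl-CoA, by -0.22 ± 0.06. The count was 2 without sh2 replicate 1 or without sh5 replicate 1, 3 without sh5 replicate 2 and 4 without sh2 replicate 2. Without the replicate block edgeR called 0, with 6 at an unadjusted p under 0.05, and DESeq2 called 0. Set beside NT, 10 of the 17 were lower with sh2 and 1 higher (6.83% and 7.71% of all genes), with a median of -0.25. With sh5, 1 was lower than NT and 2 higher (1.93% and 3.48% of all genes), with a median of -0.01.

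Of 27 tested genes of glycolysis and hypoxia 12 fell with sh2 relative to sh5 and 0 rose, beside 4.55% and 4.51% of all genes, with a median of -0.21. The difference was positive in 5 of the 27, none of them called. LDHA, lactate dehydrogenase, stood at 596, 458 and 705 CPM with sh2, against 858, 640 and 926 CPM with sh5 and 880, 598 and 874 CPM with NT, and differed by -0.47 ± 0.06 (adjusted p = 0.000165). Replicate 2 was again the lowest in each arm, and the arms overlapped while each pair kept the direction. ENO1, TPI1, PFKM, ALDOA, PKM, PGAM1 and PGK1, all enzymes of the glycolytic chain, differed by -0.34, -0.43, -0.26, -0.25, -0.25, -0.21 and -0.23 on the log2 scale. ALDOC, the brain form of aldolase, had the largest difference of the list, at 116, 117 and 99.6 CPM with sh2 against 158, 236 and 193 CPM with sh5 and 157, 266 and 179 CPM with NT (-0.80 ± 0.15, adjusted p = 0.0386). Among targets of the hypoxia factor, PDK1, the pyruvate dehydrogenase kinase, differed by -0.42 ± 0.07 and BNIP3L, a mitophagy receptor, by -0.38 ± 0.07. Beside NT, 13 of the 27 were lower with sh2 and 1 higher (6.83% and 7.71% of all genes). Without the block edgeR called 0 of these, with 9 lower and 1 higher at an unadjusted p under 0.05, and DESeq2 called 4. With sh5 edgeR called 0 lower and 1 higher, with 1 lower at an unadjusted p under 0.05, and DESeq2 called 0 lower. The count of 12 was 6 without sh5 replicate 1 and 4 without sh5 replicate 2. Without the replicate block edgeR called 0, with 7 at an unadjusted p under 0.05, and DESeq2 called 3.

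Of 15 tested genes of class II antigen presentation 4 were lower with sh2 than with sh5 and 0 higher, beside 4.55% and 4.51% of all genes. Set beside NT, 4 were called higher and 1 lower with sh2 (7.71% and 6.83% of all genes). With sh5, 3 were called higher than NT and 0 lower (3.48% and 1.93% of all genes). Without the replicate block 1 was called, HLA-DOA. HLA-DQA1 stood at 21.6, 20.8 and 15.8 CPM with sh2, against 27.4, 24.2 and 23.6 CPM with sh5 and 17.4, 14.5 and 14 CPM with NT. Its order was sh5, sh2, NT, with -0.38 ± 0.08 between sh2 and sh5 (adjusted p = 0.00792) and 0.71 between sh5 and NT. HLA-DOA, which tempers peptide loading, differed by -0.36 ± 0.05 and was called lower than NT with sh2 (-0.18, adjusted p = 0.0407). HLA-DPA1, called against NT in neither arm, differed by -0.21 ± 0.05 and HLA-DMB by -0.47 ± 0.12. These genes belong to families of similar sequence, and the sources used here do not say how reads shared between copies were counted.

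Of 19 tested genes of RNA interference, the machinery that hairpins use, 1 rose and 1 fell, or 10.5% of the list beside 9.06% of all genes. DICER1, the enzyme that cuts hairpins, was at 330, 359 and 334 CPM with sh2, against 411, 408 and 409 CPM with sh5 and 354, 322 and 366 CPM with NT (-0.26 ± 0.06, adjusted p = 0.0108). The 3 sh5 libraries lay above all others. TNRC6C, a partner of Argonaute, rose by 0.37 ± 0.09. Of 28 genes of H3K36 and H3K27 methylation, NSD2's own class, 7.14% were called: 1 rose, the demethylase KDM2B (0.16 ± 0.05, adjusted p = 0.0478), and 1 fell, the demethylase KDM4C (-0.18 ± 0.05, adjusted p = 0.048). Of 28 genes of the interferon response and double-stranded RNA sensing 1 rose and 2 fell, or 10.7% of the list beside 9.06% of all genes. IRF1, an interferon regulatory factor, rose by 0.21 ± 0.05. The interferon-induced IFIT2 and OASL differed by -0.57 ± 0.14 and -1.15 ± 0.32, OASL at under 1 CPM in every library.

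The remaining lists held at most 5 called members each, and their counts stand beside 9.06% of all genes called. The share called was 21.7% in the integrated stress response, 18.2% among adhesion receptors and among p53 targets, 14.8% in the HOXA and progenitor list, 13.3% in the BCL2 family, 11.1% among ABC transporters and 9.52% among heat shock proteins. In the integrated stress response 4 of 23 fell, among them ASNS, asparagine synthetase (-0.56 ± 0.13, adjusted p = 0.0161), and 1 rose, SLC3A2, an amino acid transporter chain (0.20 ± 0.05). VEGFA, the angiogenic factor and also on the stress response list, differed by -0.92 ± 0.14, with 25.5, 15.5 and 29.5 CPM in sh2, 46.9, 34.2 and 51.9 CPM in sh5 and 48.9, 45.3 and 48.7 CPM in NT. Of 22 adhesion and migration receptors 3 fell, S1PR1, ITGB1 and ITGAV, and 1 rose, ITGB7. Of 22 p53 targets 3 rose, among them TP53INP1 by 0.51 and FDXR by 0.38, and 1 fell, CCNG1 by 0.18 (log2 -0.18). Of 27 HOXA cluster, KMT2A-fusion target and progenitor genes 3 rose, BCL11A (0.31 ± 0.05), ARID1B and KMT2A, and 1 fell, SENP6. BCL2L1, which encodes BCL-XL, and BCL2L12 were the 2 risers among 15 genes of the BCL2 family, at 0.23 ± 0.06 and 0.26 ± 0.08, and neither was called with the GC correction or by DESeq2. ABCA2 and ABCC1 rose among 18 ABC transporters, by 0.49 ± 0.07 and 0.29 ± 0.06. HSPA1A, whose reads may be shared with its near-identical copy, and HSPB1 rose among 21 heat shock proteins.

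Few cell cycle genes were called. Of 30 S phase genes 2 rose, MCM5, a helicase subunit, by 0.22 ± 0.05 and UHRF1, a methylation reader, by 0.18 ± 0.05. The S phase differences were positive in 23 genes and negative in 7, with a median of 0.04, and DESeq2 called 3 higher and 0 lower. Of 30 G2 and M phase genes edgeR called 0, with 2 at an unadjusted p under 0.05, and DESeq2 called 0. Of 18 glucocorticoid receptor and response genes edgeR called 0, with 7 at an unadjusted p under 0.05, and DESeq2 called 1. Of 13 mitochondrially encoded transcripts edgeR called 0, with 0 at an unadjusted p under 0.05, and DESeq2 called 0. XBP1 was the 1 gene called among 21 of the unfolded protein response, RRP9 among 28 of MYC and ribosome biogenesis, HIST1H3B among 23 replication-dependent histones and RPS23 among 30 ribosomal proteins. The histone differences were small but positive in 21 of 23, with a median of 0.14. At an unadjusted p under 0.05, 8 histones were higher and 0 lower, and DESeq2 called 4 higher. Ribosomal protein differences were negative in 25 of 30, with a median of -0.06. At an unadjusted p under 0.05, 6 were lower and 0 higher, and DESeq2 called 4 lower. SPRY1 and IER5 were called among 27 MAPK feedback and immediate early genes, and NFKB1 and TNFAIP2 among 17 NF-kB targets.

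**Figure D3:**
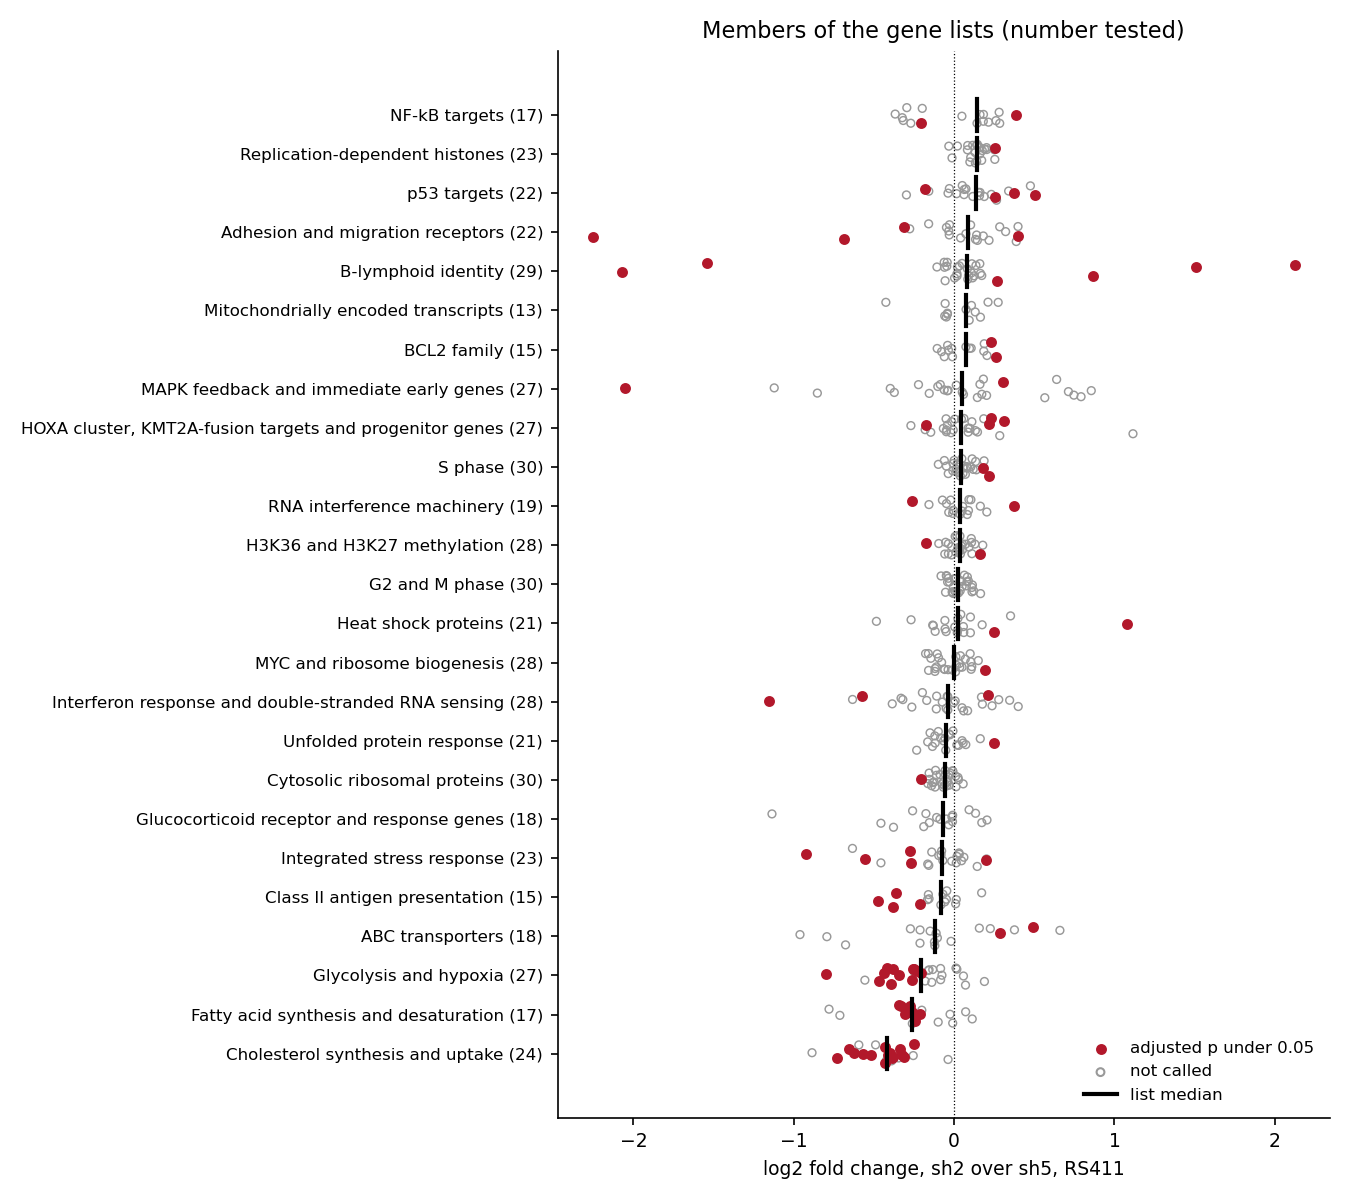
Log2 fold changes of sh2 over sh5 in RS411 (horizontal axis) for the tested members of 25 gene lists, with the number tested behind each name. Filled points passed an adjusted p under 0.05, open points did not, and black bars are list medians, which are lowest for cholesterol (-0.42), fatty acids (-0.26) and glycolysis (-0.21).

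The calls moved with the base composition of transcripts, and its part in them was not tested. With genes split into 4 equal bins of GC content, 0.846% were called higher and 9.76% lower in the lowest bin, and in the highest bin 13.8% were called higher and 1.27% lower. Median GC content was 58.9% in genes called higher, 42.8% in genes called lower and 48.5% in all tested genes with a value. It was 50.3% in the cholesterol list, 48.5% in the fatty acid list and 52.1% in the glycolysis list. With a GC correction added after the data were seen, 987 genes were called, 417 higher and 570 lower, and 819 of the original calls were kept in direction. Of 82 called genes named, 17 lost their call, KDM2B, KDM4C, IRF1, ARID1B, CCNG1, FDXR, MCM5, UHRF1, RRP9, SLC3A2, TNFAIP2, BCL2L1, BCL2L12, ITGB7, HIST1H3B, HSPB1 and RPS23.

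**Figure D4:**
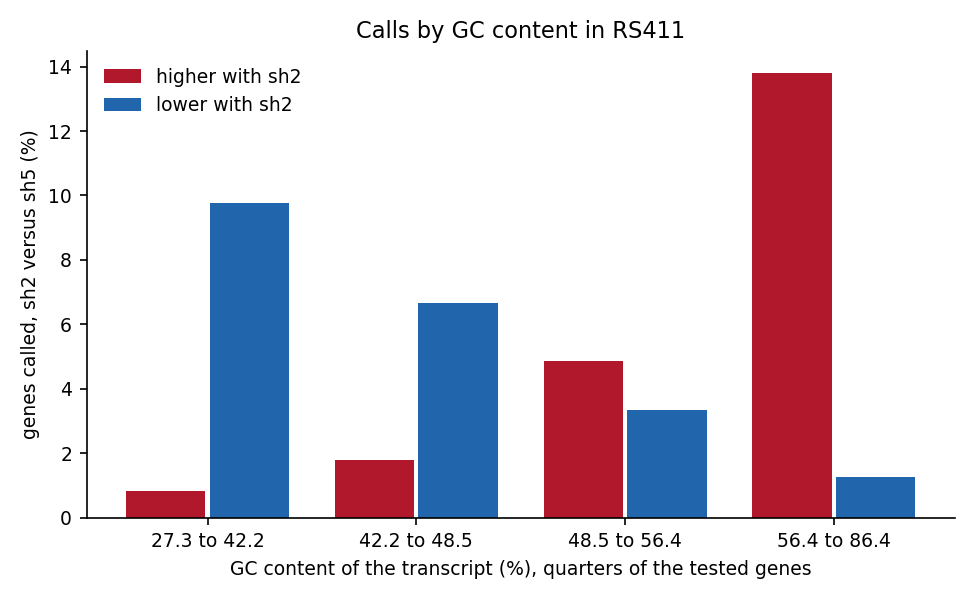
Percent of tested RS411 genes called higher (left bars) or lower (right bars) with sh2 than with sh5 (vertical axis, from 0), in 4 equal bins of transcript GC content (horizontal axis, percent). In the lowest bin 0.846% were called higher and 9.76% lower, and in the highest bin 13.8% were called higher and 1.27% lower.

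SEM and RCH carry the same hairpins and share no library with RS411, so the comparison was repeated there. In SEM, which also bears a KMT2A-AFF1 fusion, 3532 of 17042 genes (20.7%) differed between sh2 and sh5. The hairpins were not alike on NSD2 there, which was higher with sh2 than with sh5 by 0.29 ± 0.04 on the log2 scale (adjusted p = 5.5e-05, edgeR), while in RCH the difference was 0.02 (adjusted p = 0.966). Of 739 genes called higher in RS411 and tested in SEM, 212 (28.7%) were called higher there too, which is 15% of SEM's 1417 higher genes, beside 8.98% of all genes tested in both. Of 728 called lower, 362 (49.7%) were called lower in SEM, 19.9% of SEM's 1822 lower genes, beside 11.5% of all. Calls of the opposite direction numbered 54 among the higher genes (7.31%, beside 11.5% of all) and 40 among the lower genes (5.49%, beside 8.98% of all). Transcript GC content is a property the lines share, and its part in these shares was not tested. The 574 genes called alike became 175 without RS411 sh5 replicate 2, 219 without sh5 replicate 1, 293 without sh2 replicate 2, 317 without sh2 replicate 1 and 890 without sh2 replicate 3. In RCH 343 of 17468 genes (1.96%) were called, 1.47% higher and 0.492% lower. Of 754 genes called higher in RS411 and tested in RCH, 22 (2.92%) were called higher there too, beside 1.33% of all genes tested in both. Of 711 called lower, 8 (1.13%) were called lower in RCH, beside 0.411% of all. Opposite calls numbered 7 among the higher genes (0.928%, beside 0.411% of all) and 21 among the lower genes (2.95%, beside 1.33% of all). More lower genes were thus called opposite than alike, in a line where more genes were called higher than lower. In RCH 7 of 9 same-numbered pairs of libraries correlated at over 0.1 and the others at 0.0964 and -0.0689, so pairing by number was not shown for every pair there.

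PRKCH, a protein kinase C, was among the firmest shared falls, with 4.80, 5.00 and 6.88 CPM in RS411 sh2 against 13.1, 14.2 and 14.6 CPM in sh5 and 6.61, 8.15 and 9.51 CPM in NT, a difference of -1.34 ± 0.11 in RS411 and -1.23 in SEM. MAGI1, a junction scaffold, differed by -0.72 ± 0.08 in RS411 and -2.08 in SEM, ATXN1, a transcriptional repressor, by -0.51 ± 0.06 and -1.62, S100A10, the annexin partner, by -0.59 ± 0.06 and -0.47, and PIP5K1B by -1.49 ± 0.16 and -1.34. In RS411 MAGI1, ATXN1 and PRKCH were above NT with sh5, by 0.97, 0.49 and 0.80. MYO6, an unconventional myosin, stood at 0.0299, 0 and 0.0236 CPM with RS411 sh2, against 1.86, 0.997 and 4.31 CPM with sh5 and 0.185, 0.139 and 0.0729 CPM with NT, and differed by -0.98 in SEM. The sh2 counts are too close to 0 for a fold change in RS411. Shared rises were PREX1, an exchange factor for Rac (0.61 ± 0.08 in RS411, 0.43 in SEM), CTSB, cathepsin B (0.57 ± 0.08 and 0.40), PLEKHO1 (0.48 ± 0.06 and 0.31), RPS6KA1, the kinase RSK1 (0.43 ± 0.06 and 0.34), and CMTM3 (0.44 ± 0.06 and 0.53). TBX21, the T-bet factor of T and NK cells, rose by 2.34 ± 0.33 and 2.58 from low levels, with 1.85, 1.99 and 0.875 CPM in RS411 sh2 against 0.545, 0.350 and 0.0703 CPM in sh5 and 0.370, 0.471 and 0.255 CPM in NT.

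Other differences did not recur or turned round. DNTT and BLNK, which rose in RS411, fell in SEM with sh2 relative to sh5, by 1.28 and 1.59 (log2 -1.28 and -1.59, adjusted p = 0.000165 and 2.07e-06). Tested directly, the RS411 difference minus the mean of those in SEM and RCH was 2.695 ± 0.226 for DNTT (adjusted p = 1.63e-06) and 2.075 ± 0.251 for BLNK (adjusted p = 0.000188). In RCH, where neither was called, the differences were 0.11 for DNTT and 0.43 for BLNK. Some genes lower with sh2 in RS411 were called higher with sh2 elsewhere. They include MME in RCH (2.66), VEGFA in SEM (0.18) and RCH (0.70), HLA-DQA1 in RCH (0.86) and HLA-DPA1 in SEM (0.29). PCDH9 differed by 0.30 in SEM and 0.05 in RCH, with a difference between lines of -5.973 ± 0.423. Over all 20225 genes of the joint fit 567 (2.8%) were called for a difference between lines, 1.12% higher and 1.68% lower in RS411, and 262 of these were called between sh2 and sh5 in RS411. The cholesterol list had 9 of 24 members lower and 0 higher in SEM (12% of all genes were lower), with a median of -0.11, and a median of -0.09 in RCH. In SEM 8 of 27 glycolysis and hypoxia genes were higher with sh2 and 0 lower (8.7% of all genes were higher), with a median of 0.06. Called the same way in all 3 lines were 14 genes, among them BTG2, an antiproliferative p53 target, ATP2B1, a calcium pump, ERRFI1, an inhibitor of EGF receptor signalling, RHOH, a haematopoietic GTPase, and FCGRT, the neonatal Fc receptor. No background share was worked out for the 14. They rest on the RCH calls, which ran from 1 to 2850 on leaving out 1 RCH library. Without the replicate block edgeR called 0 in RCH, with 1714 at an unadjusted p under 0.05, and DESeq2 called 197. In RS411 BTG2 lost its call with the sh2 and sh5 libraries alone (0.25, adjusted p = 0.0675, edgeR).

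**Figure D5:**
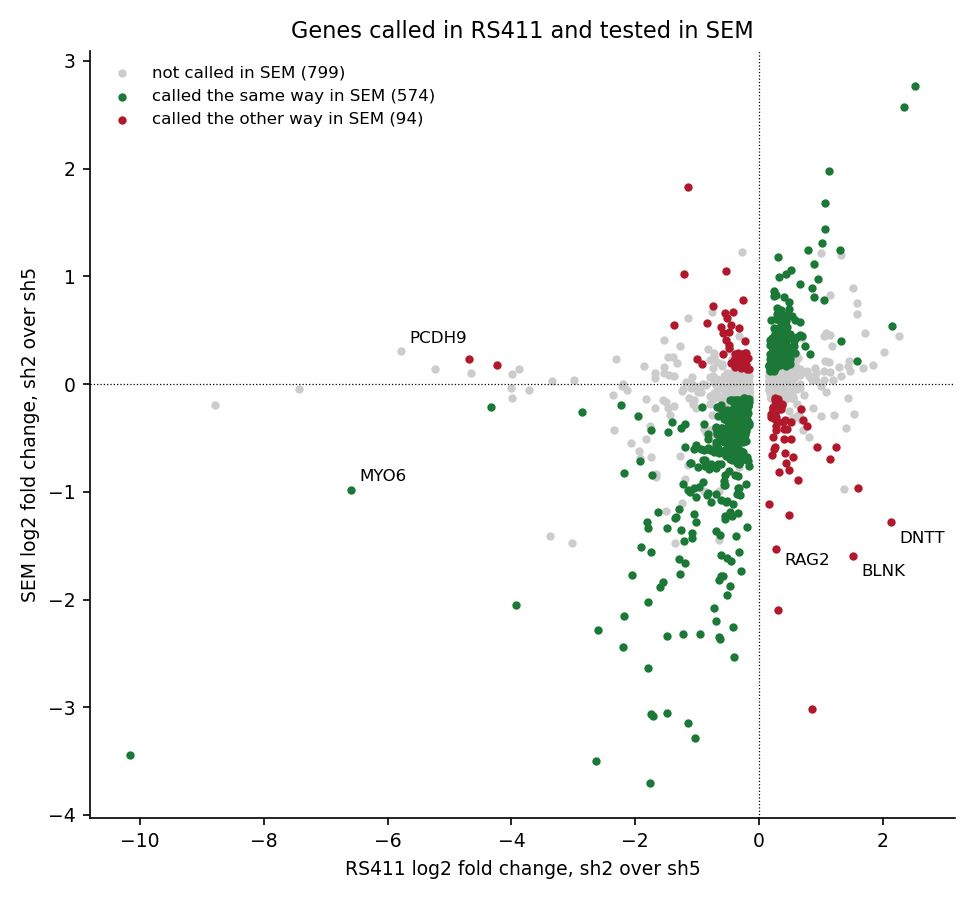
Log2 fold changes of sh2 over sh5 in RS411 (horizontal axis) and SEM (vertical axis) for the 1467 genes called in RS411 and tested in SEM. Of these points 574 were called the same way in SEM, 94 the other way and 799 not at all, with DNTT, BLNK and RAG2 among the opposite calls.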

How the data were processed

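RNA was extracted with RNeasy kits and made into stranded TruSeq libraries after RiboZero depletion, per the labels. The submitters' processing notes name Trimmomatic, STAR and featureCounts, and the build hg19. They give neither versions nor the strand setting of the counting. The authors deposited raw counts per gene for RS411, SEM and RCH, which were used as they stand. Genes whose names had turned into dates (27 in RS411, 0.214% of reads) were left out.

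Counts were tested with edgeR 4.0.16 (R 4.3.3) by quasi-likelihood F-tests on the 9 libraries of a line, with filterByExpr by arm, TMM factors, robust dispersions and the replicate number as a block. Benjamini-Hochberg adjustment ran over all genes tested. A joint fit of 27 libraries tested the RS411 difference minus the mean of those in SEM and RCH. In RS411 the deviations of same-numbered sh2 and sh5 libraries from their arm means correlated at 0.218, 0.347 and 0.226, and all other same-numbered pairs at over 0.1, so the numbers were taken as pairing. In SEM every such pair passed 0.1, in RCH not every one. Overlapping and antisense genes cannot be told apart.

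Named genes were NSD2, the 12 largest log2 fold changes in each direction among called genes of at least 5 CPM in the higher arm with 1 sign in all 3 pairs, up to 3 called members per list and up to 6 genes per direction shared with SEM or RCH. Further list members served as examples. The members and lists were chosen with earlier results of these data known. Other analyses used DESeq2 1.42.0, RLE or upper-quartile scaling, other low-count filters, no block, calls of at least 2-fold, the sh2 and sh5 libraries alone and fewer libraries. A GC correction from GENCODE transcripts and the left-out SEM and RCH libraries were added after the data were seen. The fits were tested on simulated data. Promoters came from RefSeq tables, and hairpin sequences were not used here.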

Additional observations from a re-analysis of the deposited data

Results flagged for a closer look

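For 24 of 83 named genes the sh2 minus sh5 difference in RS411 departed from the mean of those in SEM and RCH, by a test of the difference itself in the joint edgeR fit at an adjusted p under 0.05 over all genes. All named genes but NSD2 were chosen because they were called between sh2 and sh5 in RS411, and the joint fit reuses those libraries. That choice raises the share, so 24 of 83 cannot be weighed against the 567 of 20225 genes (2.8%) called over all genes. Values are log2 differences between lines. The difference was positive in 11 genes. They were DNTT (2.695), BLNK (2.075), FUT7 (1.615), FRMD4A (1.361), NINL (1.297), USP41 (1.125), DRAXIN (1.081), MMP14 (0.9374), MCM5 (0.3753), PLEKHO1 (0.374) and CMTM3 (0.3374). It was negative in the other 13 genes. They were BTG2 (-0.4949), PRKCH (-0.573), HLA-DPA1 (-0.5983), HLA-DQA1 (-0.776), MSMO1 (-0.9011), DUSP16 (-1.176), SNX9 (-1.257), SPRY1 (-1.266), KLHL5 (-1.343), VEGFA (-1.38), ITGA2B (-2.091), MYO6 (-5.467) and PCDH9 (-5.973). DNTT, BLNK, HLA-DPA1 and VEGFA were called in the opposite direction in SEM, and HLA-DQA1 and VEGFA in RCH. FUT7, PLEKHO1, CMTM3, BTG2, PRKCH, DUSP16, SNX9, SPRY1, KLHL5 and MYO6 were called in the same direction in SEM. Among these RCH had the opposite sign, without a call, for FUT7 (-0.28), PLEKHO1 (-0.12), CMTM3 (-0.35), DUSP16 (0.38), SPRY1 (0.13) and KLHL5 (0.06). BTG2 was higher with sh2 in all 3 lines, by the least in RS411. The value of MYO6 comes from near 0 reads with sh2 in RS411 and depends on the prior count.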

How the results depend on the processing

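Calls of at least 2-fold numbered 242 in RS411, 572 in SEM and 197 in RCH, 45 and 5 shared by RS411 with SEM and RCH, and 221 between lines. Without the replicate block the counts were 99, 2105 and 0 (1714 at an unadjusted p under 0.05 in RCH, and 197 by DESeq2), with 40 and 0 shared and 120 between lines. DESeq2 called 944 genes in RCH, 99 shared with RCH and 1034 between lines, and no low-count filter gave 1617, 187 and 1117. The GC correction left 987 in RS411 and 19 shared with RCH. Leaving out 1 library gave 439 to 2288 in RS411, 2379 to 4004 in SEM, 1 to 2850 in RCH, 175 to 890 shared with SEM, 0 to 141 shared with RCH and 255 to 527 between lines, the lowest without RS411 sh5 replicate 3. Without replicate 1, 2 or 3 in all arms RS411 had 517, 277 and 1861 calls, 183, 111 and 795 shared with SEM, and 8, 5 and 60 shared with RCH. The NSD2 difference turned to -0.0627 without sh2 replicate 3, and its other leave-outs reached 0.2 and, without replicate 1, 0.2116. RS411 counts under other scalings, filters, DESeq2 or the sh2 and sh5 libraries alone were 1260 to 2235. Of the called genes named, 18 kept their call without the block, and none of them changed sign in any alternative run. The causes were not tested. Depth limits genes with near 0 reads in an arm, such as MYO6 and PCDH10.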
